A study of Mus musculus with 5 samples.

Results

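The genes described here are 49 mouse genes that build and regulate an epithelium: keratins, cell junction proteins, apical and basolateral polarity proteins, and regulators of epithelial identity. They were measured in dorsal pancreatic buds lacking Ptf1a, a transcription factor of the basic helix-loop-helix family that the pancreas needs to form. The genes were chosen by function, with earlier results of these data known. Each was represented by the probe set with the highest mean log2 signal among those annotated to that gene alone. All 49 were found, among 18193 genes on the array, with Pals1 reached through its older symbol Mpp5. Together they had 102 probe sets.

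Ptf1a null buds (3 arrays) were compared with Ptf1a heterozygous buds (2 arrays). All embryos were C57BL/6J, were collected at E10.5, a stage of mid-gestation named by days after mating, from matings between heterozygotes, and carried no other allele or treatment that the labels name. The heterozygous controls therefore carry the Ptf1a mutation on the other chromosome copy, no wild-type buds are among these arrays, and the labels do not say how the allele disrupts the gene. Each array received RNA pooled from 3 buds after mechanical removal of the mesenchyme and 2 rounds of linear amplification. The labels describe separate pools but not their litters, so p-values measure only the spread between these pools.

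Epithelial cells are held together by adherens junctions, in which cadherins bind their neighbours and catenins link them to actin, by tight junctions, in which claudins and occludin seal the space between cells, and by desmosomes, which anchor keratin filaments. The Crumbs, Par and Scribble complexes set apical against basolateral sides. In the early pancreatic bud this machinery is what turns a stratified epithelial mass into polarised tubes as microlumens form and join.

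Signals below are quantile-normalised log2 intensities. Each array carries 27 Bacillus subtilis control probe sets, and their 95th percentile, used as the background, lay between 3.03 and 3.29. Median raw intensity was 13.7 to 16.4 on null arrays and 14.4 to 17.5 on heterozygote arrays, and 60.9% to 65.2% of probe sets lay above background. Arrays of the same genotype correlated across probe sets at 0.849 to 0.854, and arrays of different genotype at 0.838 to 0.862. Ptf1a itself had log2 signals of 5.21, 6.07 and 5.00 on null arrays, against 7.10 and 7.33 on heterozygote arrays (log2 change -1.79, SE 0.47, limma adjusted p = 0.651), and because the labels do not say what was deleted, this probe set may lie outside it. Only 5 arrays limit the precision of every value.

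Of the 49 genes, 45 lay above background on all 5 arrays, and none lay at background on every array. The exceptions were Cldn23, Tjp3, Jup and Ovol2. No gene of the 49 passed limma's test at an adjusted p under 0.05 over all 45037 probe sets, and neither did any other probe set (0 called, 0%). The lowest adjusted p among the 49 was 0.802. An alternative limma fit, in which the prior variance follows signal level (the trended fit), called 8 probe sets (0.0178%), again none of them among the 49, where its lowest adjusted p was 0.598.

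The 49 genes differed little between genotypes. Their median log2 change was -0.04, against -0.01 over all probe sets, with 20 genes higher and 29 lower in nulls. In bulk RNA, fewer cells of a type and less RNA per cell cannot be told apart. For 40 of the 49 genes (81.6%) the change was smaller than 0.5 on the log2 scale. That share was 60.2% of all genes and 81.2% of genes above background on all arrays. For 4 genes (8.16%) it reached 1, against 18.8% and 2.82%. The median size of the change was 0.23 among the 45 genes above background on all arrays and 0.23 among the 10376 genes of the whole array that met the same condition. An unadjusted p under 0.05 was found for 2 genes, Krt19 and Tjp3, against 5.52% of all probe sets. In the trended fit it was found for 5, Krt8, Krt18, Krt19, Pkp3 and Prom1, all of them higher in nulls, against 4.93% of all probe sets.

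Those comparisons do not show that the levels were equal. The 95% interval of a log2 change reached 0.87 to 2.03 to either side, with a median of 1.04, and for only 4 of the 49 genes did the whole interval lie inside 1 unit. Null and heterozygote arrays did not overlap for 13 genes, 7 higher in nulls (9.90% of all probe sets were) and 6 lower (10.1%). That balance depended on the scaling. With median centring 5 were higher and 9 lower, with Ctnna1, Ctnnd1 and Cldn7 joining the lower genes. Without normalisation 2 were higher and 6 lower. Of all genes above background throughout, 9.60% were higher and 9.98% lower with quantile normalisation. Those shares were 5.87% and 14.8% with median centring, and 3.77% and 12.4% without normalisation. The tilt to lower was thus also that of the whole array. Among the 45 genes above background throughout, 11 did not overlap, or 24.4%, against 19.6% of all genes above background throughout.

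**Figure D1:**
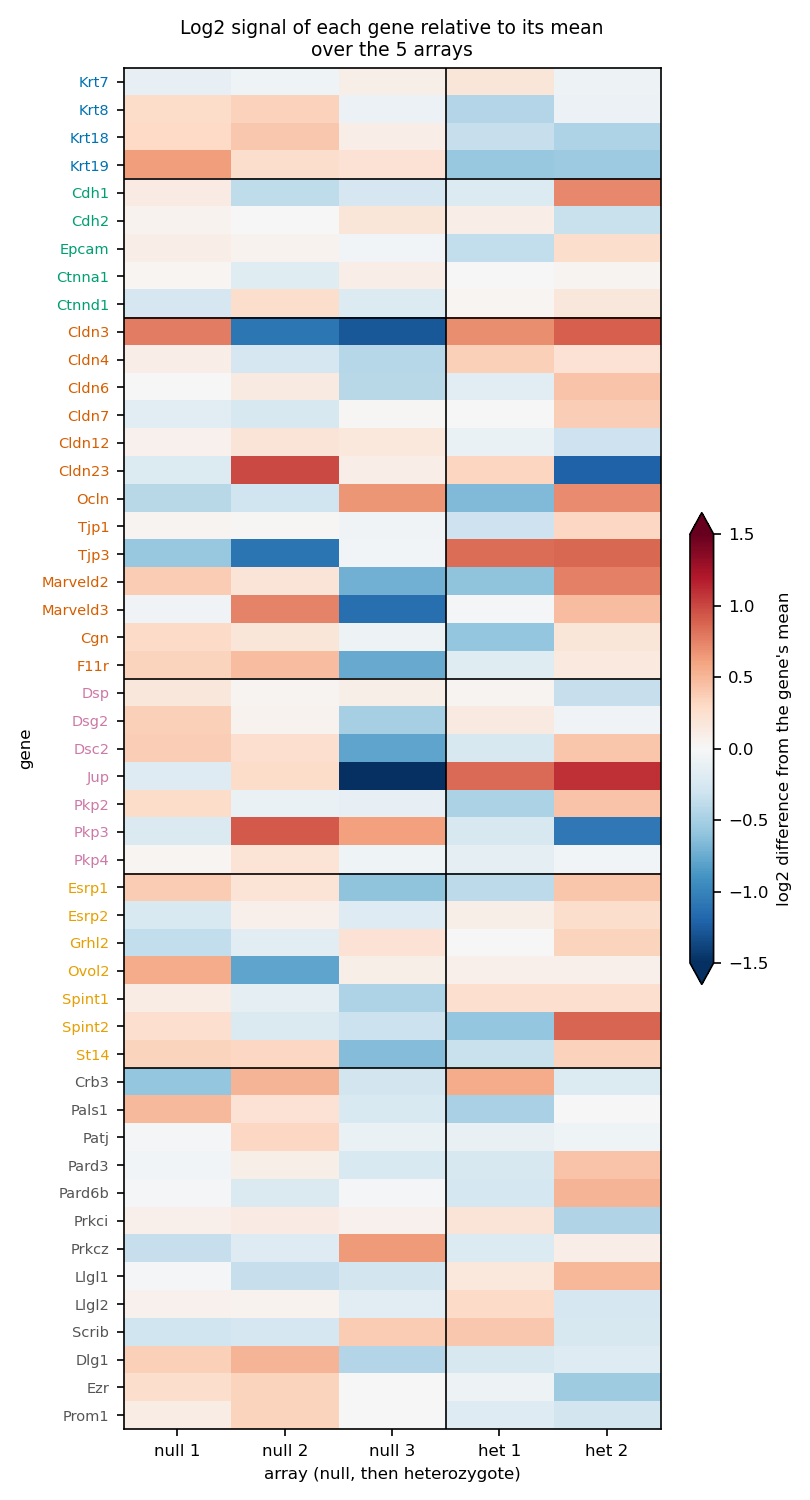
Log2 signal of each of the 49 genes (rows, grouped by role) on each array (columns, 3 null then 2 heterozygote), as the difference from the gene's own mean over the 5 arrays. Krt8, Krt18 and Krt19 form a block that is red or near white on null arrays and blue or near white on heterozygote arrays, while 7 of 13 tight junction genes are highest on heterozygote replicate 2.

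**Figure D2:**
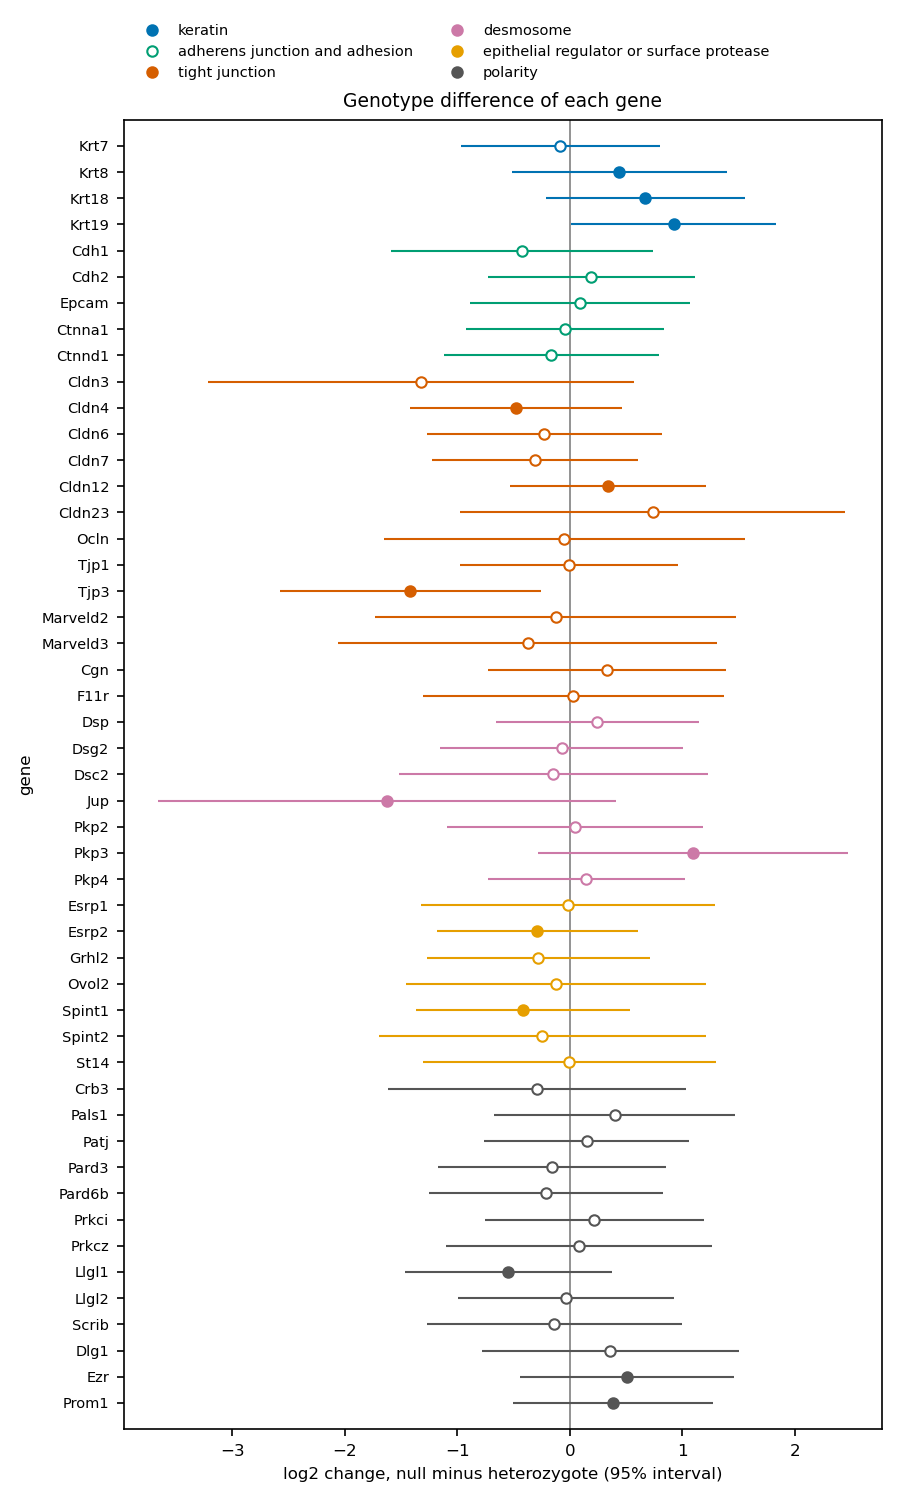
Log2 change of each gene, null minus heterozygote, with its 95% interval from limma, coloured by role. Filled points mark the 13 genes whose null and heterozygote arrays did not overlap, and the intervals of Krt19 and Tjp3 alone stay on one side of 0.

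The simple-epithelium keratins were the class with the clearest separation. Krt8 and Krt18 encode the type II and type I partners of the filament found in simple epithelia, and Krt19 is a type I keratin that marks duct epithelium in the adult pancreas. All of these were higher on every null array than on either heterozygote array. Krt7, another ductal keratin, was not. A sign of RNA quality separated the genotypes as well, since the log2 signal of the 3′ Gapdh control probe set exceeded that of the 5′ set by 1.42, 1.41 and 1.46 on null arrays, against 1.69 and 1.52 on heterozygote arrays. For Actb the differences overlapped, at 0.57 to 0.71 and 0.62 to 0.71. Their part in the keratin values was not tested. The median log2 change of the class was 0.56, with 3 of 4 genes higher in nulls, and none of the 4 passed adjustment.

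The log2 signal of Krt18 (probe set 1448169_at) was 10.56, 10.66 and 10.36 on null arrays, against 9.92 and 9.80 on heterozygote arrays. The lowest null value lay 0.45 above the highest heterozygote value. The means were 10.53 ± 0.15 (SD, n = 3) and 9.86 ± 0.08 (SD, n = 2), a 1.59-fold higher signal in nulls (log2 change 0.67, SE 0.34, limma adjusted p = 0.976, and 0.598 in the trended fit).

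Krt19 (1417156_at) had 6.67, 6.31 and 6.26 on null arrays, against 5.48 and 5.51 on heterozygote arrays, so the gap between the groups exceeded the spread within either of them. Its log2 change was 0.92 (SE 0.35, 95% interval 0.01 to 1.84, limma adjusted p = 0.900), a 1.90-fold higher signal in nulls.

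Krt8 (1420647_a_at) had 11.83, 11.90 and 11.47 on null arrays, against 11.12 and 11.47 on heterozygote arrays. Null replicate 3 and heterozygote replicate 2 differed by only 0.0052, so this separation is marginal. The log2 change was 0.44 (SE 0.37, limma adjusted p = 0.991). The log2 changes at its other 2 probe sets were 0.33 and 0.32, and 1 of them overlapped between genotypes.

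Krt7 (1423952_a_at) had 7.66, 7.70 and 7.86 on null arrays and 7.95 and 7.70 on heterozygote arrays, with overlapping groups and a log2 change of -0.08 (95% interval -0.97 to 0.80). It thus did not share the pattern of the other keratins, but its difference from them was not tested.

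The separation of the keratins depended on how the arrays were scaled. With each array centred on its median, Krt18 and Krt19 still did not overlap but Krt8 did, and without normalisation Krt8 and Krt19 did not overlap but Krt18 did. All of these genes stayed higher in nulls on average under both scalings. The median log2 change of genes above background throughout was -0.01 after quantile normalisation, -0.12 after median centring and -0.16 without normalisation. Relative to that shift, the keratin median was 0.56, 0.48 and 0.48 higher. The values for median centring and no normalisation are equal by construction, since centring moves all genes of an array alike.

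Krt8 and Krt18 are also adjacent protein-coding genes in the RefSeq table for GRCm38.p6, between Krt78 and Eif4b. The 250 bases upstream of the RefSeq start are shown for these neighbours, which were higher together in nulls, for Krt7, which lies on the same chromosome and was not, and for Cldn4, a claudin gene that was lower on every null array. Capitals mark E-boxes (CANNTG), the letters bound by basic helix-loop-helix factors such as Ptf1a. The sequences are RefSeq's, 5′ to 3′ on the strand of the gene. Krt8 is at chr15:102004343-102004592 (minus strand), Krt18 at chr15:102027966-102028215 (plus strand), Krt7 at chr15:101412153-101412402 (plus strand) and Cldn4 at chr5:134946935-134947184 (minus strand).
Krt8: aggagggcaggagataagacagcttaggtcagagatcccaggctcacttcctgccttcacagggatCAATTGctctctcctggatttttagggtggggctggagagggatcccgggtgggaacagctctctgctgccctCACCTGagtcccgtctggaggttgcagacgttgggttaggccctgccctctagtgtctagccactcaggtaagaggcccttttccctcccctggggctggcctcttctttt
Krt18: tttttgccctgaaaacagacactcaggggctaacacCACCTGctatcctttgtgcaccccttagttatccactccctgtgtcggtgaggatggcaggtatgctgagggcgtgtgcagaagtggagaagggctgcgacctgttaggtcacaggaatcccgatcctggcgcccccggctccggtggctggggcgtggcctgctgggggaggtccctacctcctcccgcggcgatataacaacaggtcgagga
Krt7: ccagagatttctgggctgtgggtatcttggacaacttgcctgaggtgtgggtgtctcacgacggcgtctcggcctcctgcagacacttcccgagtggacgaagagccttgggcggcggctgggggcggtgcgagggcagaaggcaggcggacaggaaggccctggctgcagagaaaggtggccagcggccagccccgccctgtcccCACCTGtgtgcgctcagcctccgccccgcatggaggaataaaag
Cldn4: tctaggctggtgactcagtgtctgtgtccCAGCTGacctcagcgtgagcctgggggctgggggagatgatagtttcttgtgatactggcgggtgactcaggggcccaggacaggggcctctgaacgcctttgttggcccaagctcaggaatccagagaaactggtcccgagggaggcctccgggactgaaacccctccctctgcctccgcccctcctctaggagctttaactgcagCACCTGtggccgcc

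The E-box count was 2 for Krt8, 1 for Krt18, 1 for Krt7 and 2 for Cldn4. CANNTG occurs in 66.2% of the 32851 RefSeq windows of this length. Each of the 4 windows holds the form CACCTG (or its reverse complement), which was singled out after the sequences were read and occurs in 17.2% of all windows and in 21 of the 50 windows of the genes described here (42%). It is therefore present upstream of Krt8 and Krt18, whose signal separated, and of Krt7, whose signal did not. Krt19 had no window in the RefSeq table and was not searched. Ptf1a's own binding site pairs an E-box with a second element, searched here as TGGGAAA, which was in 0 of the 4 windows and in 6.82% of all windows.

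Of the 49 genes, 32 had windows in the RefSeq table, 50 windows in all, since some genes have several starts. CANNTG was in 30 of the 50 (60%) and TGGGAAA in 8 (16%), with both in 5 (10%) against 4.65% of all windows. GGGCGG, the GC box bound by Sp1, was in 32 of 50 (64%), against 32.7% of all windows, and TATAAA in 5 (10%), against 12.4%. Motifs were searched on both strands, a CACCTG is also a CANNTG, and windows of a gene with several starts can overlap. A match describes letters only.

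**Figure D3:**
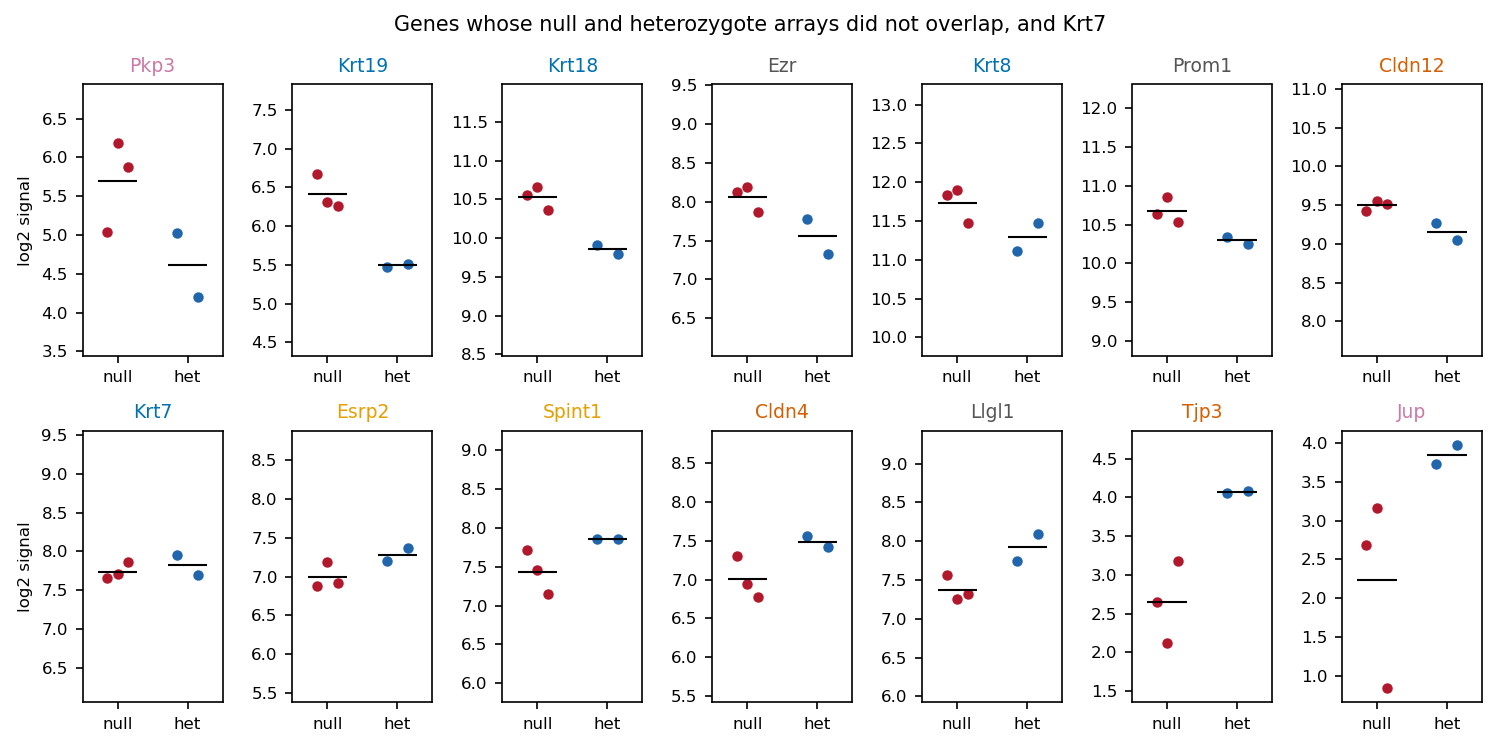
Log2 signal on each array (points) with group means (bars) for the 13 genes whose groups did not overlap, ordered by log2 change, and for Krt7. Each panel spans 3.5 log2 units, null arrays stand left of heterozygote arrays, and the gaps between groups are widest in Tjp3 (0.87) and Krt19 (0.76).

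Adherens junction and adhesion genes did not separate by genotype at their brightest probe sets, where all 5 had overlapping groups. In nulls 2 of 5 were higher and 3 lower, and the median log2 change was -0.04. Intervals were wide (for Cdh1 the 95% interval was -1.59 to 0.74), so equal levels are not shown. None passed in either fit.

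Cdh1, which encodes E-cadherin, the main cadherin of epithelia, had log2 signals of 8.01, 7.50 and 7.63 on null arrays, against 7.67 and 8.60 on heterozygote arrays. The groups overlapped because heterozygote replicate 1 lay among the nulls, while heterozygote replicate 2 stood above every other array. The means were 7.71 ± 0.26 (SD, n = 3) in nulls and 8.14 ± 0.66 (SD, n = 2) in heterozygotes (log2 change -0.43, SE 0.45, limma adjusted p = 0.999). Without heterozygote replicate 2 the change was 0.04.

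Cdh2, which encodes N-cadherin and is expressed beside E-cadherin in the developing pancreas, had 7.93, 7.87 and 8.06 on null arrays, against 7.98 and 7.54 on heterozygote arrays. Its log2 change was 0.19 (95% interval -0.73 to 1.11), with overlapping groups.

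Epcam, an epithelial adhesion molecule, had 6.43, 6.39 and 6.30 on null arrays, against 5.96 and 6.60 on heterozygote arrays (log2 change 0.09, 95% interval -0.89 to 1.07). The heterozygote arrays enclosed the nulls. Ctnna1, the alpha-catenin that couples cadherins to actin, had 11.74, 11.53 and 11.81 on null arrays and 11.72 and 11.75 on heterozygote arrays, a log2 change of -0.04. Ctnnd1, the p120 catenin that stabilises cadherin at the membrane, had a log2 change of -0.16. Its dimmest probe set, 1445830_at, had 1.47, against -0.27 at 1422450_at. Groups did not overlap at either of them, in opposite directions, so probe sets of this gene disagreed.

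Tight junction genes leaned lower in nulls, with 9 of 13 lower, 4 higher and a median log2 change of -0.13, and none passed in either fit. The lean depended on single arrays. The median was 0.06 without heterozygote replicate 2, 0.02 without null replicate 3 and -0.49 without heterozygote replicate 1, and it was -0.28 and -0.25 without null replicates 1 and 2.

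Among the claudins, the strands of the tight junction, Cldn4 had log2 signals of 7.30, 6.94 and 6.78 on null arrays, against 7.55 and 7.42 on heterozygote arrays. All null arrays were lower, by a log2 change of -0.48 (SE 0.37, limma adjusted p = 0.991). Cldn12 went the other way, with 9.43, 9.56 and 9.52 on null arrays against 9.26 and 9.05 on heterozygote arrays (log2 change 0.34, limma adjusted p = 0.996). Its second probe set was higher in nulls too and also did not overlap (log2 change 0.44). With median centring or no normalisation, the groups of Cldn12 overlapped. Those of Cldn4 overlapped without normalisation.

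Cldn3, chosen for description after its values were seen, had 5.54, 3.70 and 3.51 on null arrays, against 5.47 and 5.67 on heterozygote arrays. Null replicate 1 stood with the heterozygotes and the other nulls lay well below them, giving 4.25 ± 1.12 (SD, n = 3) in nulls and 5.57 ± 0.14 (SD, n = 2) in heterozygotes (log2 change -1.32, SE 0.73, limma adjusted p = 0.985). The same split of the nulls was seen at 1451701_x_at (5.11, 3.81 and 3.81 on null arrays, against 5.32 and 5.74 on heterozygote arrays) and at 1460569_x_at (5.16, 1.45 and 2.15, against 5.36 and 5.47). At 1460569_x_at the low null values were at background. The fourth probe set of Cldn3 was above background on 2 of 5 arrays and is not read. The suffix _x_at marks probe sets that can match several transcripts, and probe sets of a gene are no replicates of a pool.

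Cldn7 and Cldn6 had log2 changes of -0.31 and -0.23, and Cldn23, at background on heterozygote replicate 2, had 0.74. All of them overlapped between genotypes.

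Of the plaque proteins beneath the strands, Tjp1 (ZO-1) had 10.25, 10.23 and 10.16 on null arrays, against 9.91 and 10.53 on heterozygote arrays. Nulls lay between the heterozygotes, and the log2 change was -0.0034 (95% interval -0.97 to 0.97). Tjp3 (ZO-3) was lower on all null arrays, at 2.66, 2.13 and 3.18 against 4.05 and 4.09 on heterozygote arrays. It was above background on both heterozygote arrays and on 1 null array. Its log2 change was -1.42 (SE 0.45, 95% interval -2.58 to -0.26, limma adjusted p = 0.802), -0.93 with values raised to background and -0.54 with an offset of 16, so its size rests on signal near background. Cgn, which encodes cingulin, had log2 changes of 0.33 at its brightest probe set and 1.59 at 1430329_at, where the groups did not overlap.

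Occludin and its relatives varied more between pools than between genotypes. Ocln had a log2 change of -0.05 with SDs of 0.59 in nulls and 0.97 in heterozygotes. Marveld2 (tricellulin, found where 3 cells meet) had -0.13 with SDs of 0.59 and 0.97, and Marveld3 had -0.37 with SDs of 0.94 and 0.34. F11r, the junctional adhesion molecule JAM-A, had 0.03. Null replicate 3 was the lowest array for Marveld2, Marveld3 and F11r.

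Desmosome genes were split, with 4 of 7 higher and 3 lower in nulls and a median log2 change of 0.04. None passed in either fit. Pkp3, an armadillo protein of the desmosomal plaque, had 5.04, 6.19 and 5.88 on null arrays, against 5.02 and 4.20 on heterozygote arrays. Null replicate 1 exceeded heterozygote replicate 1 by 0.022, so the groups barely separate, at a log2 change of 1.09 (SE 0.53, limma adjusted p = 0.972). Its second probe set had 2.54 but was above background on 1 array.

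Jup, which encodes plakoglobin, the catenin shared by desmosomes and adherens junctions, was at background on all null arrays (2.69, 3.16 and 0.84) and above it on both heterozygote arrays (3.73 and 3.97). The signal was at least 1.68-fold lower in nulls (limma adjusted p = 0.971), and this _s_at probe set was the only one for the gene.

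The other plaque and cadherin genes overlapped between genotypes at their brightest probe sets. Pkp4 had 10.06, 10.23 and 9.96 on null arrays, against 9.89 and 9.98 on heterozygote arrays (log2 change 0.15). Dsp, which encodes desmoplakin, the link to keratin filaments, had a log2 change of 0.25 and groups that overlapped, and 0.83 (without overlap) and 0.15 at its other probe sets. Pkp2 had 0.04, and -0.84 to 0.94 at its other 3 probe sets. The desmosomal cadherin genes Dsg2 and Dsc2 had -0.07 and -0.15. The 6 probe sets of Dsg2 ranged from -0.60 to 0.51. The second probe set of Dsc2, 1421156_a_at, went the other way, with 4.31, 4.63 and 3.01 on null arrays, against 2.35 and 1.76 on heterozygote arrays. It was at background on both heterozygote arrays and on 1 null array, did not overlap, and was at least 1.76-fold higher in nulls (limma adjusted p = 0.816).

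Regulators of epithelial identity and their surface proteases were all lower on average in nulls, 7 of 7, but by little. The median log2 change was -0.24, the range was -0.42 to -0.0028, and none passed in either fit. Only Esrp2 and Spint1 had groups that did not overlap. Without heterozygote replicate 2 the median was -0.11, and without heterozygote replicate 1 it was -0.42.

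Spint1, a membrane inhibitor of trypsin-like proteases, had 7.72, 7.45 and 7.15 on null arrays, against 7.85 and 7.85 on heterozygote arrays. The nulls were lower and more spread (log2 change -0.42, SE 0.37, limma adjusted p = 0.992), and the groups overlapped without normalisation. Esrp2, an RNA-binding protein that sets epithelial splice forms, had 6.88, 7.19 and 6.91 on null arrays, against 7.19 and 7.37 on heterozygote arrays. Its gap was 0.0089 and its log2 change -0.29 (limma adjusted p = 0.999). Its paralog Esrp1 had -0.02 and overlapped.

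Grhl2, a transcription factor that activates Cdh1 and claudin genes, had a log2 change of -0.28 at its brightest probe set and -1.19 to 0.20 at the other 3. Ovol2, a repressor of mesenchymal programmes, was above background on 1 of 5 arrays and is not measured well here. Spint2 had a log2 change of -0.24, resting on a high heterozygote replicate 2 (7.95 against 6.50 on heterozygote replicate 1). St14, the protease matriptase that Spint1 and Spint2 inhibit, had -0.0028 and overlapping groups.

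Polarity genes were measured above background on every array for all 13, with 7 higher and 6 lower in nulls and a median log2 change of 0.08. None passed in either fit. The genes that separated upwards both act at the apical membrane, where Crb3 was lower on average. Prom1, which encodes the apical protrusion protein prominin-1, had 10.64, 10.86 and 10.54 on null arrays, against 10.34 and 10.25 on heterozygote arrays, without overlap (log2 change 0.38, SE 0.34, limma adjusted p = 0.992). Ezr, which encodes ezrin, the linker between the apical membrane and actin, had 8.13, 8.20 and 7.86 on null arrays, against 7.78 and 7.33 on heterozygote arrays, also without overlap (log2 change 0.51, SE 0.37, limma adjusted p = 0.991). A second ezrin probe set above background on all arrays had -0.41. Prom1 and Ezr overlapped between genotypes without normalisation.

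Within the Crumbs complex, Crb3, its transmembrane protein, had a log2 change of -0.29, Pals1, its scaffold, had 0.40, and Patj, the partner that reaches tight junctions, had 0.15. All overlapped. Within the Par complex, the log2 changes were -0.16 for the scaffold gene Pard3, -0.21 for Pard6b, 0.22 for Prkci and 0.08 for Prkcz, which encode its atypical protein kinases. All of these overlapped too.

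On the basolateral side, Llgl1, a Lethal giant larvae homolog that opposes the Par complex, had 7.56, 7.25 and 7.32 on null arrays, against 7.75 and 8.09 on heterozygote arrays. Nulls were lower without overlap under all 3 scalings (log2 change -0.55, SE 0.36, limma adjusted p = 0.991). Llgl2 had -0.03, Scrib -0.14 and Dlg1 0.36. The second bright probe set of Dlg1 had -0.53 with groups that did not overlap in the opposite direction to its mean at the first, so Dlg1 has no settled direction here.

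Probe sets other than the brightest were available for 29 genes, 53 in all, of which 32 were above background on every array. At 21 of those 32 the sign of the log2 change matched that of the brightest probe set, and at 11 it did not. None of the 53 was called in either fit.

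Arrays differed in these genes in a way that genotype did not follow. Heterozygote replicate 2 held the highest value for 20 of the 49 genes (40.8%), against 23.9% of all genes above background throughout. Null replicate 3 and heterozygote replicate 1 each held the lowest value for 13 genes (26.5%), against 18.5% and 20.7%. The median of the 49 genes relative to each gene's mean was 0.07, 0.08 and -0.09 on null replicates 1 to 3 and -0.11 and 0.16 on heterozygote replicates 1 and 2. The keratins did not follow that order, with medians of 0.29, 0.30 and 0.10 on null arrays and -0.39 and -0.28 on heterozygote arrays.

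Related genes outside the 49 were read in the same way. Among 35 further junction genes, 17 were higher and 18 lower in nulls (median log2 change -0.02), and among 25 further polarity genes 9 were higher and 16 lower (median -0.07). Of 12 further epithelial regulators 5 were higher and 7 lower (median -0.22). None of these passed in either fit. Of 10 further keratins, most of them markers of stratified epithelia, 4 were higher and 6 lower in nulls (median log2 change -0.58), the opposite direction to the median of Krt7, Krt8, Krt18 and Krt19. Most were dim, with 2 above background on all arrays, Krt20 (log2 change 0.17) and Krt80, which was lower. The others higher in nulls were Krt5 (0.70, without overlap), Krt14 (0.49) and Krt17 (1.06), none of them above background on all arrays. Krt20 and these were named after their values were seen. An unadjusted p under 0.05 was found for 3, against 5.52% of all probe sets. These 3 were all lower in nulls without overlap (10.1% of all probe sets were) and were named after their values were seen. Krt80, above background throughout, had 3.63, 4.07 and 3.87 on null arrays, against 4.63 and 5.82 on heterozygote arrays (log2 change -1.37, limma adjusted p = 0.867). Krt4 was above background on 1 null array and both heterozygote arrays (log2 change -1.82, limma adjusted p = 0.633), and Krt23 was at background on every array.

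Of these further genes, 4 had an unadjusted p under 0.01 in either fit. The share of all probe sets under that threshold is not given here, so the count is not read as a result. Cdh6, a cadherin, had 6.58, 6.31 and 6.11 on null arrays, against 4.32 and 5.20 on heterozygote arrays (log2 change 1.57, limma adjusted p = 0.71, and 0.798 in the trended fit). Nectin3, an immunoglobulin-type adhesion molecule of adherens junctions, had 8.53, 8.13 and 8.28 on null arrays, against 7.57 and 7.48 on heterozygote arrays (log2 change 0.78, limma adjusted p = 0.943). Amot, an angiomotin that binds Patj, had 10.12, 10.30 and 9.90 on null arrays, against 9.41 and 9.57 on heterozygote arrays (log2 change 0.62, limma adjusted p = 0.986). Null and heterozygote arrays did not overlap for any of these genes, as was so for 20.0% of all probe sets. Dsc3, a desmosomal cadherin gene, was at background on all null arrays and barely above it on 1 heterozygote array, at least 1.03-fold lower in nulls (limma adjusted p = 0.432).

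Markers of other cell types were read beside these values, and none passed in either fit. Mesenchyme and epithelial-mesenchymal transition markers were higher in nulls for 17 of 20 genes (median log2 change 0.46). Their summed signal was 12.11 to 12.20 on null arrays, against 11.66 to 11.77 on heterozygote arrays, in log2, without overlap, as for the keratins (12.13 to 12.49, against 11.77 to 11.96). The brightest were Fn1 (log2 change 0.74), Vim (0.02) and Col3a1 (0.56). The 6 transition factor genes of the list, described after their values were seen, all had overlapping groups. Snai2 had the largest log2 change of them, 1.07 (limma adjusted p = 0.991), with 7.93, 8.06 and 7.27 on null arrays, against 7.59 and 5.79 on heterozygote arrays. Zeb1, Snai1, Twist2 and Zeb2 had 0.35, 0.14, 0.09 and -0.32, and Twist1 was at background on every array. The part of mesenchyme in the keratin difference was not tested.

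Bud epithelium markers, Ptf1a among them, were lower in nulls for 8 of 9 genes (median log2 change -0.51), with a summed signal of 9.66 to 10.03 on null arrays, against 10.38 to 10.62 on heterozygote arrays. Mnx1 had the largest difference of the 9 (-2.68, limma adjusted p = 0.369, and 0.0612 in the trended fit), while the brightest, Pdx1, Prox1 and Onecut1, had -0.51, -0.70 and -0.37. Endocrine markers had 3 of 6 higher and a summed signal of 11.99 to 12.28, against 11.26 to 12.33, with Gcg, Iapp and Isl1 brightest (log2 changes 0.33, 0.83 and -0.02).

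Mesothelium is another tissue that makes Krt8, Krt18 and Krt19. Of its 5 markers, none was above background on all arrays, 1 was higher and 4 were lower in nulls on average. Msln was at background on every array, and Wt1 was above it on 4. Wt1, Lrrn4 and Upk1b were brightest (log2 changes 2.50, -0.24 and -0.39). Wt1 had 4.71, 4.18 and 4.63 on null arrays, against 4.51 and -0.49 on heterozygote arrays. Its change thus rests on heterozygote replicate 2, and its groups overlapped. The summed signal of the 5 mesothelial markers was 4.82 to 5.52 on null arrays and 3.80 to 5.43 on heterozygote arrays. Erythroid markers were lower in nulls for 7 of 8 genes, with Hbb-y, Hbb-bh1 and Hba-x brightest (log2 changes -0.06, -0.81 and -1.31) and a summed signal of 12.95 to 13.11, against 13.20 to 13.51. Endothelium, leukocyte, and neural crest and glia markers had medians of -0.09, -0.35 and 0.27. The brightest endothelial genes, Kdr, Cldn5 and Tek, had log2 changes of -0.66, 0.58 and -0.36. The brightest leukocyte genes, Fcer1g, Csf1r and Tyrobp, had -0.35, -0.04 and -1.57. Fcer1g was above background on 2 arrays and Tyrobp on 3, and of the 5 leukocyte markers only Csf1r was above it on all arrays. Among neural crest genes, Tfap2b had 2.49 (limma adjusted p = 0.613), Sox10 had 0.57 and Erbb3 had -0.03. Their part in the values of the 49 genes was not tested.

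**Figure D4:**
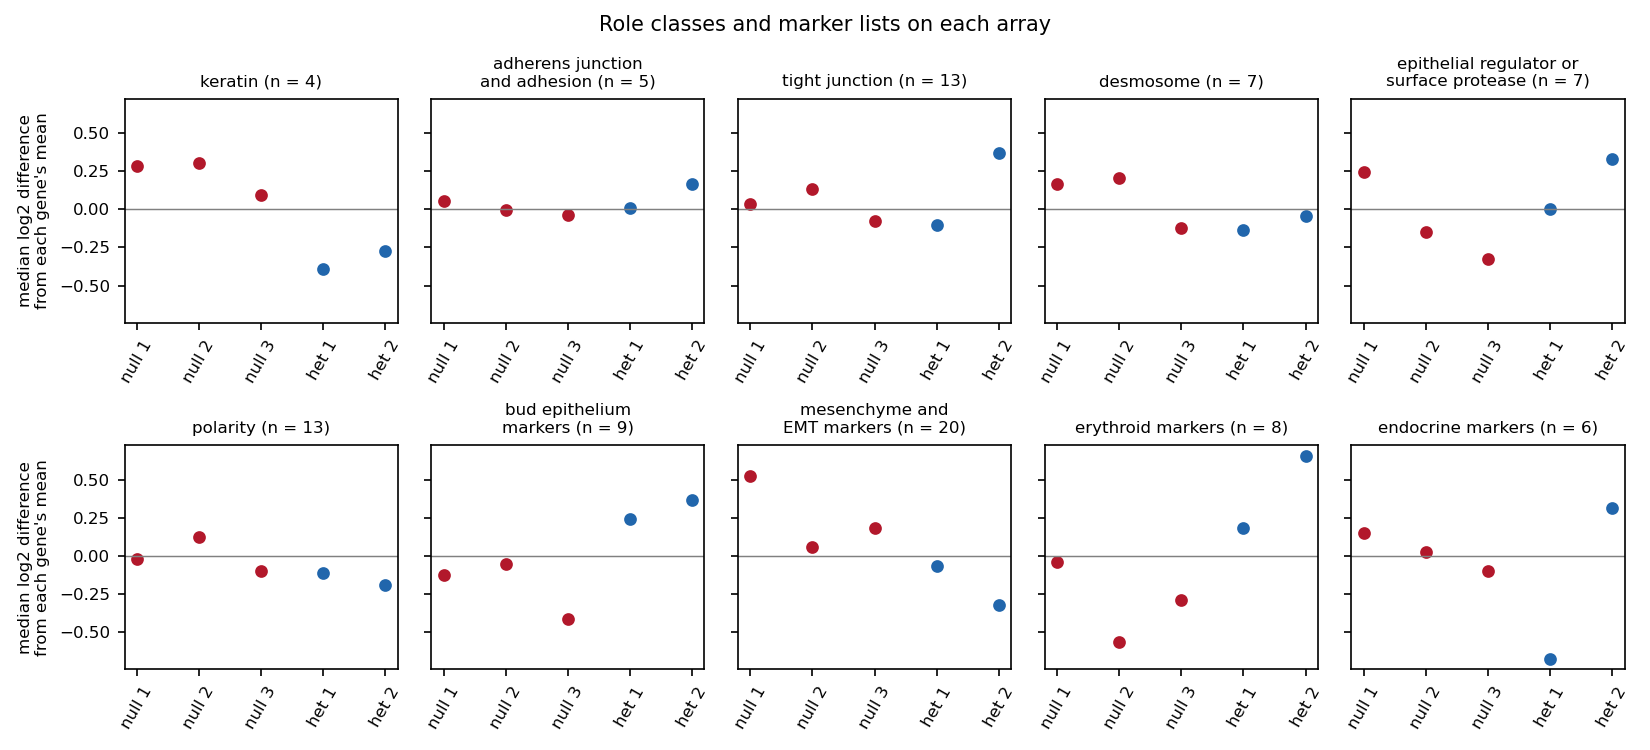
Median log2 difference from each gene's mean over the 5 arrays, for the 6 role classes of the 49 genes and for 4 lists of cell type markers, on each null (red, left) and heterozygote (blue, right) array. Keratins and mesenchyme markers lie higher on null arrays and bud epithelium and erythroid markers lower, polarity genes separate by a narrow margin, and the other 4 role classes and the endocrine markers overlap.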

How the data were processed

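The deposited table gives linear intensity values, made by the authors, for 45101 probe sets on 5 Affymetrix Mouse Genome arrays. The submitters' processing notes name GCOS and RMA but neither versions nor roles. The values are not RMA's log2 output, since they are linear and their array medians spanned 0.353 on the log2 scale. How background was treated is not stated there. Dim probe sets vary much between arrays once on a log2 scale.

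Intensities were log2-transformed with no offset, then quantile normalised. Tests leave out 64 control probe sets and cover the other 45037, of which 34945 had 1 gene symbol, 932 several and 9160 none in the platform annotation. Matching by gene ID to RefSeq succeeded for 34741 and changed 0 names. Genotypes were compared, null minus heterozygote, in limma 3.58.1 under R 4.3.3 (lmFit and eBayes), with no covariate. Tests were two-sided, and p-values were adjusted by Benjamini-Hochberg across the 45037 probe sets. The trended fit uses eBayes with trend and robust settings. An exact permutation test of 3 against 2 arrays cannot go below 0.1, and none was run. Where a gene was at or below background on every array of a group, its fold is a lower bound against background. The fits were tested on simulated data.

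The members and lists were chosen with earlier results of these data known. Values on every array are given for members above background whose groups did not overlap, the brightest of each class, those with an unadjusted p under 0.05 in either fit, and Cdh1, Cdh2, Epcam, Krt8, Krt18, Krt19 and Tjp1. Genes outside the 49 are named where an unadjusted p was under 0.01 in either fit or where they were the brightest 3 of a marker list, with exceptions stated. Alternatives were other scalings, an offset, a floor at background, a filter on dim probe sets, other probe sets of a gene, the replicate number as a block, and each array left out.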

Additional observations from a re-analysis of the deposited data

How the results depend on the processing

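The count of called genes among the 49 was 0 under every alternative run, including the trended fit with each array left out, which was added after the data were seen. Over all probe sets it was 8 in the trended fit and 0 otherwise. Of the 49 log2 changes, 17 kept their sign in every alternative that gave a value (14, or 13 for Jup), and the 13 genes with separated groups were among them. For those 13 this was largely fixed in advance. The trended fit and the filter on dim probe sets reuse the same changes, and separated groups keep their order when an array is left out. Class medians moved too. With median centring the median was 0.357 for keratins and -0.227 for adherens junction genes, and without normalisation it was 0.312, -0.272 and, for polarity genes, -0.030. With the mean of all probe sets it was 0.214 for adherens junction, 0.203 for desmosome and -0.138 for polarity genes, and without _s_at and _x_at probe sets 0.090, 0.197 and -0.034. With an array left out the median ranged from 0.481 to 0.663 for keratins, -0.229 to 0.040 for adherens junction, -0.492 to 0.064 for tight junction, -0.082 to 0.208 for desmosome and 0.025 to 0.193 for polarity genes. The cause was not tested. With the replicate number as a block, the medians were 0.663 for keratins and 0.208 for desmosome genes, and 0 probe sets were called. No heterozygote array is numbered 3, so this fit gives the same changes as leaving out null replicate 3. Its changes are therefore no separate alternative. Deviations of same-numbered arrays from their group means had correlations of -0.017 and 0.008. With 2 heterozygote arrays these deviations mirror each other, so the check cannot tell whether the numbers pair the pools. Dim signal limits Tjp3, Jup, Cldn23 and Ovol2.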
